A study of Mus musculus with 2 samples.

Results

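Zinc transporters of the Slc30 and Slc39 families were examined in RNA from dorsal skin of aged mice given red light, set against dorsal skin of aged mice left untreated. Members were all rows of the authors' table whose symbol begins with Slc30a or Slc39a, 7 of 4183 rows: Slc30a1, Slc30a2, Slc30a3, Slc39a2, Slc39a6, Slc39a8 and Slc39a10. They were selected on the measured difference itself, because apart from 4 rows the table holds only genes whose group means differ at least 2-fold. RefSeq lists 10 Slc30 and 14 Slc39 genes in the mouse, so 3 exporters and 4 importers are in the table. The other 17 family genes are not in it, and nothing is said here about them.

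Both groups were C57BL/6 mice, 18 to 20 months old. The red light group received 8 J/cm² once a day on 28 consecutive days, and the untreated group received no irradiation. GEO describes 1 sample in each group, and how many animals stand behind it is not stated. Each value is a group mean in FPKM, made by the authors (fragment numbers corrected for how long a transcript is and how many fragments its library gave), so levels can be compared between genes of different length. No library values and no read counts were used, depth is unknown, and the spread between animals is unknown for every difference below. No p-value is therefore given, and every fold is a description of 2 means.

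Zinc is a structural or catalytic part of many proteins, and cells hold the free ion at very low levels. Slc30 proteins (ZnT) move zinc out of the cytosol, across the plasma membrane or into vesicles, and Slc39 proteins (ZIP) move it into the cytosol. Metallothioneins bind the surplus, and the zinc-sensing transcription factor MTF1 switches on metallothionein genes and Slc30a1. Skin holds much zinc, and inherited loss of zinc uptake in humans gives dermatitis and hair loss.

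Zinc transporter levels were higher in red light skin for 6 of the 7 genes, and lower for 1, the exporter Slc30a2. Of all rows in the table, 38.6% were labelled higher and 61.4% lower, and since the members were chosen on this same contrast nothing is read from the comparison. The authors' label matched the direction of the means for 7 of 7 genes. For 7 of 7 the log2 ratio lay within the range of same-label rows among the 5 on each side, allowing 0.01.

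**Figure D1:**
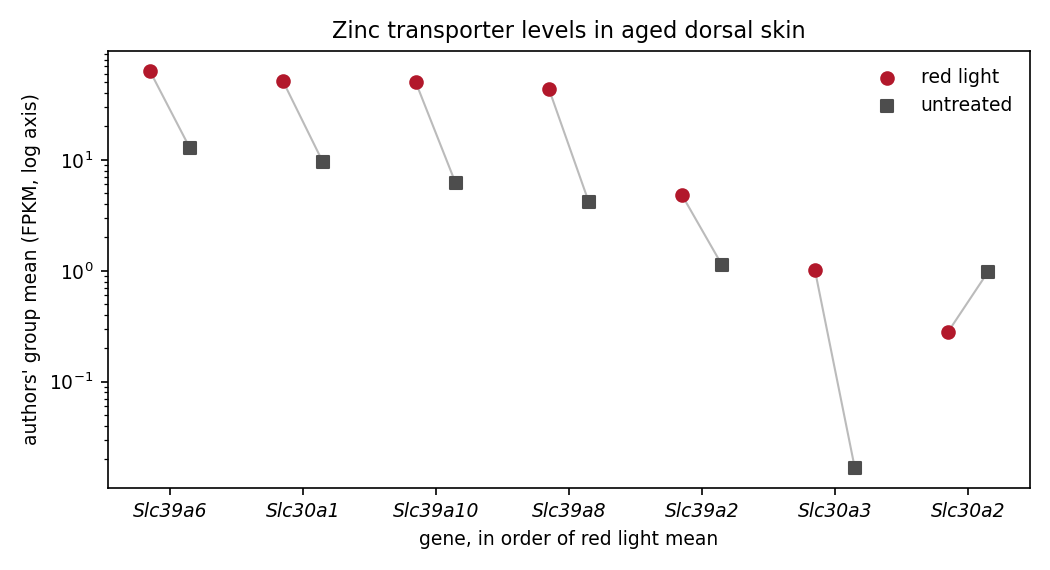
Authors' mean FPKM (log axis) of each zinc transporter in red light skin (circles) and untreated skin (squares), 1 mean per group, with a grey line joining the means of a gene. Slc39a6, Slc30a1, Slc39a10 and Slc39a8 lie between 43.8 and 63.8 FPKM in red light skin and between 4.18 and 12.9 FPKM in untreated skin, and Slc30a2 alone is lower in red light skin.

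Among the importers, Slc39a6 (ZIP6, also called LIV-1) had the highest level of all 7 genes in both groups. Its mean was 63.8 FPKM in red light skin and 12.9 FPKM in untreated skin, a 4.94-fold difference (log2 2.30). Slc39a10 (ZIP10), which pairs with ZIP6 in a heteromer and is needed in mouse epidermis for normal skin and hair follicles, averaged 50.01 FPKM in red light skin and 6.15 FPKM in untreated skin. That is 8.14-fold (log2 3.02). The level of Slc39a6 was therefore 1.28 times that of Slc39a10 in red light skin and 2.10 times in untreated skin.

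Slc39a8 (ZIP8), which carries manganese and cadmium as well as zinc, showed the largest ratio among the importers. Its mean was 43.8 FPKM in red light skin and 4.18 FPKM in untreated skin, or 10.5-fold (log2 3.39). Slc39a2 (ZIP2), known from human keratinocytes as a gene of their differentiation, was far less abundant. It stood at 4.83 FPKM in red light skin and 1.14 FPKM in untreated skin, a 4.25-fold difference (log2 2.09, or 1.45 with a pseudocount of 1 FPKM). All 4 listed importers were thus higher, by ratios between 4.25-fold and 10.5-fold.

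Among the listed exporters, Slc30a1 (ZnT1), the main plasma membrane exporter, carried nearly all of the signal. It averaged 51.7 FPKM in red light skin and 9.64 FPKM in untreated skin, a 5.37-fold difference (log2 2.42). Slc30a1 made up 97.6% of the summed FPKM of the 3 listed exporters in red light skin and 90.7% in untreated skin. Whether antisense reads contribute to it was not tested: in GENCODE M21 its exons overlap those of 1700034H15Rik on the opposite strand, and strand-specific counting is not stated. Exons of Slc39a2 likewise overlap those of Mettl17, on the same strand, and neither neighbour is in the table.

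Slc30a3 (ZnT3), which fills synaptic vesicles of neurons with zinc, had the largest ratio of the 7 genes but from almost nothing. Its mean was 1.02 FPKM in red light skin and 0.0167 FPKM in untreated skin, which is 61-fold (log2 5.93). If library values were rounded to 2 decimals before averaging, each mean can be off by up to 0.005 FPKM, and the ratio could lie anywhere between 46.7-fold and 87.6-fold. With a pseudocount of 1 FPKM the log2 ratio of Slc30a3 was 0.99 in place of 5.93, and with 0.1 FPKM it was 3.26. In absolute terms that difference is small beside the 42.1 FPKM by which the means of Slc30a1 differed.

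Slc30a2 (ZnT2), a vesicular transporter known for loading zinc into milk, was the only listed member with a lower mean after red light. It stood at 0.28 FPKM in red light skin and 0.973 FPKM in untreated skin, or 3.48-fold lower (log2 −1.80). Rounding to 2 decimals would allow 3.40-fold to 3.56-fold. With a pseudocount of 1 FPKM the log2 ratio of Slc30a2 was −0.62, and its level was under 1 FPKM in both groups. Slc30a2 and Slc30a3 changed places: Slc30a3 had 3.63 times the level of Slc30a2 in red light skin, while in untreated skin Slc30a2 had 58.4 times the level of Slc30a3. The second ratio divides by a Slc30a3 mean of 0.0167 FPKM, which such rounding could shift, so it is only rough.

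Apart from that exchange, the order of levels was the same in both groups, namely Slc39a6, Slc30a1, Slc39a10, Slc39a8 and Slc39a2 from high to low. Slc30a1 and Slc39a10 were nearly level in red light skin, where Slc39a10 reached 0.966 times the Slc30a1 mean, against 0.638 times in untreated skin. With no library values, no 2 neighbours in this order can be said to differ. The most abundant 4 genes had differences in level of similar size, 50.9 FPKM for Slc39a6, 43.9 FPKM for Slc39a10, 42.1 FPKM for Slc30a1 and 39.6 FPKM for Slc39a8.

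Export and import genes were then summed. The 4 importers added up to 162 FPKM in red light skin and 24.4 FPKM in untreated skin, 6.66-fold higher. The 3 exporters added up to 53.04 FPKM in red light skin and 10.6 FPKM in untreated skin, 4.99-fold higher. Listed importer RNA was thus 3.06 times listed exporter RNA in red light skin and 2.29 times in untreated skin. The exporter value rests on Slc30a1: without it the sum of Slc30a2 and Slc30a3 was 1.31-fold higher, while the importer sum without Slc39a6 was 8.60-fold higher. Summed over all listed rows, FPKM was 167025 in red light skin and 127026 in untreated skin, also 1.31-fold higher. All rows were filtered on this same contrast, and nothing is read from setting the sums side by side. These sums cover listed genes only and are RNA levels, which say nothing of zinc flux.

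**Figure D2:**
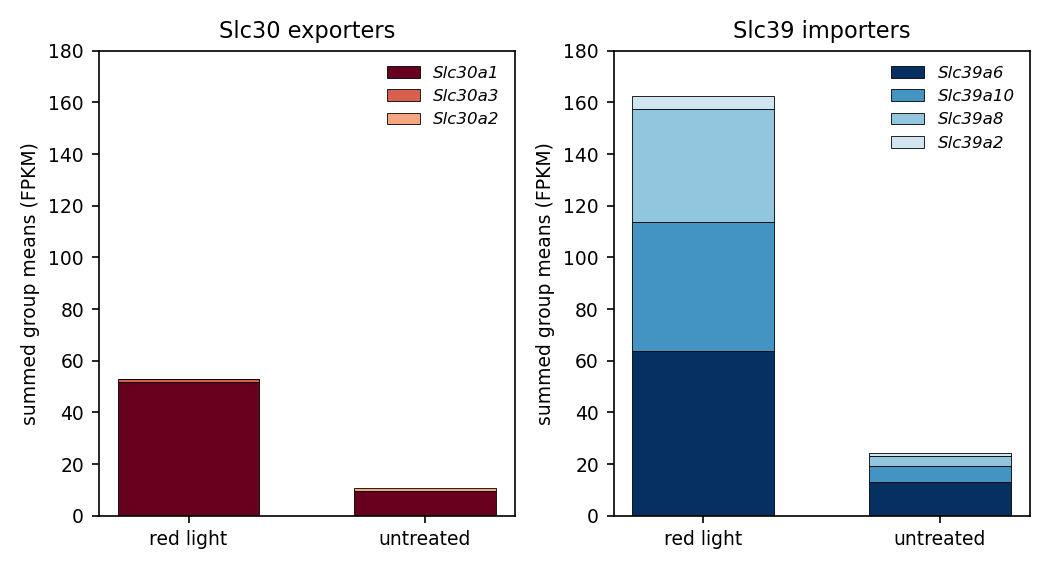
Stacked bars of the authors' mean FPKM for the 3 listed Slc30 exporters (left panel) and the 4 listed Slc39 importers (right panel), with red light skin left of untreated skin on a shared linear scale from 0. Exporters sum to 53.04 FPKM in red light skin and 10.6 FPKM in untreated skin, nearly all Slc30a1, and importers to 162 FPKM in red light skin and 24.4 FPKM in untreated skin, spread over Slc39a6, Slc39a10 and Slc39a8.

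Within the sum of the 4 listed importers the shares differed between groups. Slc39a6 supplied 39.3% in red light skin and 52.96% in untreated skin. Slc39a8 supplied 26.97% in red light skin and 17.2% in untreated skin, and Slc39a10 supplied 30.8% in red light skin and 25.2% in untreated skin. Slc39a2 supplied 2.98% of importer FPKM in red light skin and 4.66% in untreated skin. No listed importer held more than 52.96% of the listed importer sum, whereas Slc30a1 held over 90% of the listed exporter sum in both groups. The levels of the family genes outside the table are unknown, so these are not shares of whole families.

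Other solute carriers, the membrane transporters to which both families belong, give a scale for these values, although all were filtered on the same contrast and nothing is read from their directions. Of the 92 other listed rows whose symbol begins with Slc, 38 were higher and 54 lower by their means, with a median log2 ratio of −1.16, close to the −1.21 of all listed rows. The median was 2.66 for the 4 importers and 2.42 for the 3 exporters, and that of the exporters became 0.99 with a pseudocount of 1 FPKM and 4.18 with a minimum of 1 FPKM. Slc39a6, Slc30a1, Slc39a10 and Slc39a8 ranked 3, 5, 6 and 7 by level among all 99 Slc rows in red light skin. Their ranks in untreated skin were 16, 22, 31 and 39. The largest ratios among the other carriers of at least 1 FPKM belonged to Slc24a4 and Slc24a5, exchangers of sodium for calcium and potassium, the second of which serves melanosomes. Slc24a4 stood at 1.82 FPKM in red light skin and 0.0167 FPKM in untreated skin, and Slc24a5 at 7.59 FPKM in red light skin and 0.213 FPKM in untreated skin.

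**Figure D3:**
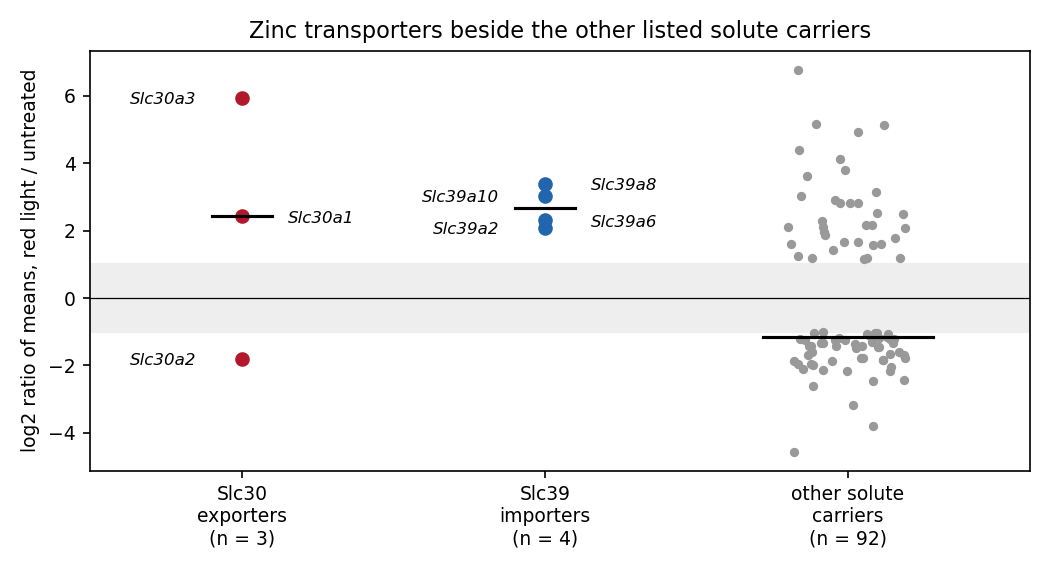
Log2 ratio of the authors' means, red light over untreated, for the 3 Slc30 exporters, the 4 Slc39 importers and the 92 other listed solute carriers (each point a gene, black lines the medians; 2 carriers with a mean of 0 in 1 group are not drawn). The grey band is the range below 2-fold, in which only 4 of all listed rows fall. Of the zinc transporters 6 of 7 lie above it and Slc30a2 below it. The median of the other carriers is −1.16. Over all listed rows 38.7% were higher by their means. All rows were filtered on this same contrast, so nothing is read from the comparison.

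Further lists of zinc and metal genes are counted among listed rows only, which were filtered on this same contrast. Over all listed rows 38.7% were higher and the rest lower by their means, with a median log2 ratio of −1.21, and no list is called different from that. Genes that store or sense zinc went both ways. Of 14 such genes 4 were in the table, 2 higher and 2 lower. S100a7a, a small calcium- and zinc-binding protein of the psoriasin group, stood at 102.8 FPKM in red light skin and 1.03 FPKM in untreated skin. Mt4, the metallothionein of stratified epithelia, was 10.2-fold higher, at 377 FPKM in red light skin and 37.2 FPKM in untreated skin. Mt3, best known from brain, was 3.87-fold lower, at 0.683 FPKM in red light skin and 2.65 FPKM in untreated skin. Mt1, the broadly expressed metallothionein, was 2.69-fold lower, at 242 FPKM in red light skin and 651 FPKM in untreated skin. Mtf1 and Mt2 are not in the table.

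Of 28 genes for zinc enzymes and their relatives 10 were in the table, 6 higher and 4 lower, beside 38.7% higher over all listed rows. Their median log2 ratio was 1.17 beside −1.21 for all listed rows. Car6, a secreted carbonic anhydrase, was 62.7-fold higher, at 102.6 FPKM in red light skin and 1.64 FPKM in untreated skin. Car14, a membrane-bound form, was 6.76-fold lower, at 1.29 FPKM in red light skin and 8.74 FPKM in untreated skin. Car8, a carbonic anhydrase relative that has lost the catalytic zinc, was 5.96-fold lower and under 1 FPKM in both groups.

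Of 15 copper genes 7 were in the table, 6 higher and 1 lower, beside 38.7% higher over all listed rows. Their median log2 ratio was 1.73 beside −1.21 for all listed rows. Hephl1, a copper-dependent oxidase needed for normal hair in mice, stood at 47.1 FPKM in red light skin and 3.17 FPKM in untreated skin, 14.9-fold higher. Steap1, of the metalloreductase family, was 13.2-fold higher, and the copper pump Atp7b 4.75-fold higher at 0.127 FPKM in red light skin and 0.0267 FPKM in untreated skin. The lower gene was Cp, the plasma copper oxidase ceruloplasmin, at 7.88 FPKM in red light skin and 16.5 FPKM in untreated skin.

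Of 22 iron and manganese genes 12 were in the table, 5 higher (41.7%) and 7 lower, with a median log2 ratio of −1.21, close to the share and the median of all listed rows. Slc40a1, the iron exporter ferroportin, stood at 93.1 FPKM in red light skin and 5.37 FPKM in untreated skin, 17.3-fold higher. Cybrd1, a ferric reductase, was 15.5-fold higher, at 11.7 FPKM in red light skin and 0.753 FPKM in untreated skin. Hamp2, a close relative of the iron hormone hepcidin, was 17.0-fold lower, at 2.64 FPKM in red light skin and 44.9 FPKM in untreated skin.

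**Figure D4:**
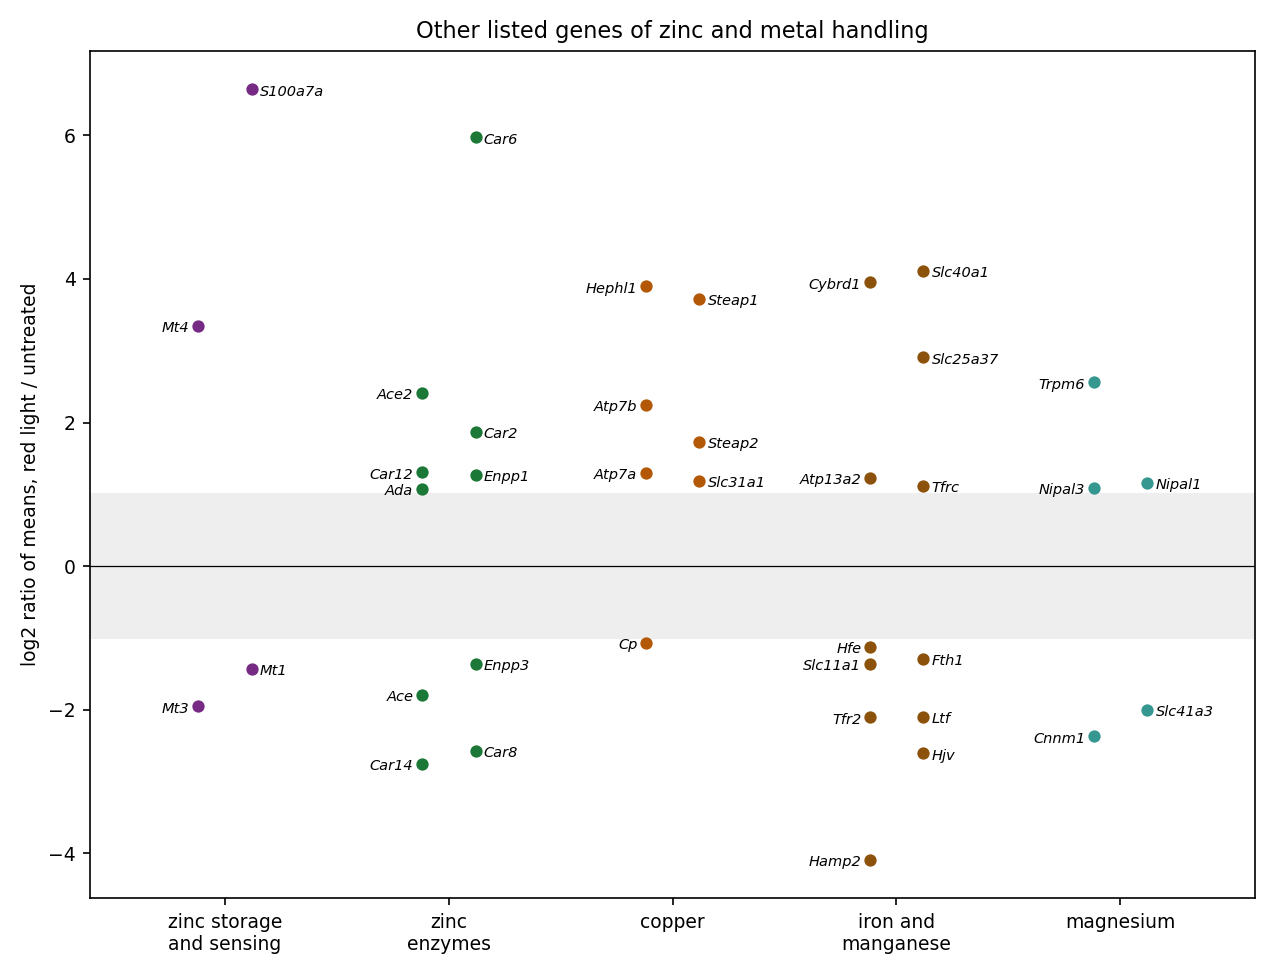
Log2 ratio of the authors' means, red light over untreated, for each listed gene of zinc storage and sensing, zinc enzymes, copper, iron and manganese, and magnesium handling (each point a gene, shifted sideways for legibility only). The grey band is the range below 2-fold, in which only 4 of all listed rows fall. Of 15 copper genes 7 are listed, of which 6 lie above it and Cp lies below it, and the other groups also have genes on both sides. Over all listed rows 38.7% were higher by their means. All were filtered on this same contrast, and no group is called different from that.

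Cell type markers differed between the same means by unlike amounts, and those listed were filtered on this same contrast. The median log2 ratio was 8.24 for hair shaft and inner root sheath, −1.14 for macrophage and −0.37 for fibroblast markers. Over all listed rows 38.7% were higher and the rest lower by their means, and nothing is read from the counts of markers by direction. Of 15 hair shaft and inner root sheath markers 14 were in the table, all higher, summing to 20204 FPKM in red light skin and 65.8 FPKM in untreated skin. All 5 listed of 6 melanocyte markers were higher, with sums of 145 FPKM in red light skin and 8.73 FPKM in untreated skin. All 9 skeletal muscle markers were lower, with sums of 1915 FPKM in red light skin and 10831 FPKM in untreated skin. Macrophage markers were lower in 5 of 5 cases, at 105.8 FPKM in red light skin and 258 FPKM in untreated skin. T cell markers were lower in 5 of 5 cases, at 4.91 FPKM in red light skin and 18.9 FPKM in untreated skin. The 3 listed of 4 nerve markers were lower too, at 41.6 FPKM in red light skin and 246 FPKM in untreated skin. Of 7 epidermal markers 4 were listed, 1 higher and 3 lower (813 FPKM in red light skin and 2773 FPKM in untreated skin), so epidermal RNA was present in both groups. Scd3 was the 1 listed of 6 sebocyte markers and was lower, 4 of 5 fibroblast markers were listed, 2 higher and 2 lower by their means, and 0 of 5 adipocyte markers were listed. No listed marker had a mean of 0. The part of these cell types in the zinc transporter differences was not tested, and in whole skin a change in the number of cells cannot be told apart from a change in RNA per cell.

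Other genes with closely similar means were looked up for the transporters, as the smallest Euclidean distance over the 2 log2 group means. With only 2 means per gene such likeness is a description of level and ratio, nothing more. The nearest gene was Serpina11 for Slc30a3 (distance 0.098), Cyria for Slc39a8 (0.127), Otub2 for Slc39a10 (0.274) and Ero1a for Slc30a1 (0.086). It was Pitrm1 for Slc39a6 (0.26) and Tmem25 for Slc30a2 (0.0049). Ero1a stood at 52.5 FPKM in red light skin and 10.2 FPKM in untreated skin, beside 51.7 FPKM in red light skin and 9.64 FPKM in untreated skin for Slc30a1.

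Promoter sequence was read next, because Slc30a1 and the metallothioneins are known targets of MTF1, which binds the metal response element. The element's core was searched as TGCACNC or TGCGCNC on both strands, in the 250 bases before each transcript start that RefSeq gives (GRCm38.p6). No source used here names the authors' build, and these positions locate the sequences and not the reads. Of the 7 genes 6 had at least 1 window, 9 windows in all, and 4 of the 9 (44.4%) held the core. It was found in 21.4% of all 32851 RefSeq windows and in 24.6% of the 4009 windows of genes in the table. All 3 exporters had the core in at least 1 window, as did 1 of the 3 importers with a window, Slc39a8. Slc39a6 had no window. Counted by gene in the same way, 23.8% of 27025 genes had the core in at least 1 window. With so few transporters, nothing is read from these counts.

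The 5 matches are shown with 11 bases on either side, 5′ to 3′ on the gene's strand and with the core in capitals, so that the single sites can be compared. The site of Slc30a1 is at chr1:191906727-191906755 (+), its core beginning 43 bases before the transcript start. Those of Slc30a2 are at chr4:134343241-134343269 and chr4:134343255-134343283 (+), with cores 214 and 200 bases before the start, inside sequence annotated as exon on the same strand. The windows shown for these 2 sites overlap, but their cores do not. The site of Slc30a3 is at chr5:31108304-31108332 (−), its core 77 bases before the start, and that of Slc39a8 at chr3:135825627-135825655 (+), its core 19 bases before the start.
Slc30a1: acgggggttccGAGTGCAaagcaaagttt
Slc30a2, first site: gccatcgtcccGCGCGCAacttcgagggc
Slc30a2, second site: cgcaacttcgaGGGCGCAccgagagaggc
Slc30a3: gaaactgcgctTGCGCACtttgtagggga
Slc39a8: ttatctctaaaGGGTGCAgggcctgatct
In Slc30a1, Slc30a2 and Slc39a8 the core is read on the opposite strand, and in Slc30a3 on the gene's own strand. A match is a string of letters and not a bound site, and no match says only that these letters are not in the window.

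Windows of the transporters also differed in base composition. The GC content ran from 35.6% to 71.6% over the 9 windows, with a median of 62.0%, against 56% for windows of genes in the table and 52.4% for all RefSeq windows. A pair of windows free of exons annotated on the gene's own strand is printed whole. They set the gene of largest ratio beside an abundant importer without a match. That of Slc30a3, chr5:31108245-31108494 (−), has 53.2% GC, 13 CpG pairs and 1 core, in capitals. That of Slc39a10, chr1:46925777-46926026 (−), has 35.6% GC, 1 CpG pair and no core. The second start of Slc39a10 has a window of 71.6% GC with 37 CpG pairs and again no core, and the table does not say which start was used.
Slc30a3: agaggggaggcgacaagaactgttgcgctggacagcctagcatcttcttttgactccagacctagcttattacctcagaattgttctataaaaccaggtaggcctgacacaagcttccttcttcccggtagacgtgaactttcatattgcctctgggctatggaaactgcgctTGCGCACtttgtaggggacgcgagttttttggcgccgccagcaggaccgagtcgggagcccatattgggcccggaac
Slc39a10: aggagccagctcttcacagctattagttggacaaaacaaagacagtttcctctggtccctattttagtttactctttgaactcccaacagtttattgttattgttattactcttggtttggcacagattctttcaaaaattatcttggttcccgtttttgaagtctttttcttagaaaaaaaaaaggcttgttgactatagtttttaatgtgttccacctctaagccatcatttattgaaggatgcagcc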

How the data were processed

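Polyadenylated RNA was selected from Trizol extracts and made into libraries with an NEBNext Ultra kit, per the labels' protocols. The deposited table holds the authors' mean FPKM per group and an UP or DOWN label, per the file headers. DESeq2 1.40.2, R 4.3.1, RSEM and Bowtie2 2.2.8 appear in the submitters' processing notes, with no step assigned to them. Neither a genome build nor the filter behind the table is given in the sources used here. Every mean equals an average of 3 values with 2 decimals, but the number of libraries is not stated.

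Ratios are red light over untreated without a pseudocount. Medians, sums and counts by the direction of the means were computed over each gene list, and the search functions were tested on simulated data. The members and lists were chosen with earlier results of these data known. Named were all members, the 3 members of each metal list with the largest ratio in either direction, the nearest gene to each transporter (that of Slc39a2 is not reported here) and the 2 other carriers with the largest ratio. Mt1, Mtf1, Mt2, Cp and Scd3 were named after their values were seen. Alternatives were pseudocounts of 1 and 0.1, a minimum of 1 FPKM, a 4-fold limit, direction by means, sums without the top gene and 200-base windows. Protein sequences were not used here. Promoter sequences and gene names came from RefSeq (GRCm38.p6), exons from GENCODE M21. Software was pandas 2.3.3, numpy 2.4.6 and matplotlib 3.10.9, run under Python 3.11.15.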

Additional observations from a re-analysis of the deposited data

How the results depend on the processing

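Of 38 recomputed values 28 stayed within 1.5 times the reported value and 10 went beyond it, with log2 ratios compared as log2 values; 0 changed sign, which pseudocounts cannot cause. Adding 1 FPKM to both means brought the exporter median to 0.99 on the log2 scale in place of 2.42, and with a minimum of 1 FPKM, which removes Slc30a2, it was 4.18. With that minimum, and likewise with a 4-fold limit, 0 exporters were lower. Without Slc30a1 the exporter sum was 1.31-fold higher in place of 4.99-fold, beside 1.31-fold for the sum of all listed rows. With the 4-fold limit 761 rows were higher and 789 lower, which a stricter limit brings about by itself. Among single log2 ratios a pseudocount of 1 took those of Slc30a3 and Slc30a2 beyond 1.5 times, and 0.1 that of Slc30a3. The log2 ratio of Slc39a2 stayed within that limit, at 1.45 in place of 2.09, but its linear fold did not. The 4 importers stayed higher under each alternative run on them, but no such alternative could have reversed a direction. A pseudocount keeps the sign, and a minimum, a 4-fold limit or leaving out a gene only drops rows. Leaving out replicates was not run, as single library values were not used. No paired analysis was possible because only a mean per group was given for a gene. Since read depth is not known, counting error in Slc30a2 and Slc30a3 could not be stated.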

Other observations

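Magnesium handling genes were also followed. Of 14 such genes 5 were in the table, 3 higher and 2 lower after red light, with a median log2 ratio of 1.09. Over all listed rows 38.7% were higher by their means and the median was −1.21, and the list is not called different from that. Trpm6, a magnesium channel of epithelia, stood at 1.61 FPKM in red light skin and 0.273 FPKM in untreated skin, 5.89-fold higher. Cnnm1, of a magnesium transport family, was 5.18-fold lower, at 0.0567 FPKM in red light skin and 0.293 FPKM in untreated skin. Slc41a3, of a magnesium carrier family, was 4-fold lower, at 1.93 FPKM in red light skin and 7.73 FPKM in untreated skin. None of these differences has a replicate check.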
